A study of Mus musculus with 8 samples.

Results

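Transcription factors of myeloid fate, 10 in number, were followed in sorted mouse bone marrow hematopoietic stem and progenitor cells: Cebpa, Cebpb, Cebpd, Cebpe, Cebpg, Sfpi1 (the gene of PU.1, now also written Spi1), Irf8, Gfi1, Runx1 and Cbfb. They were taken by gene symbol from the deposited count table, which held all 10 of them among 23282 gene entries, and all 10 were among the 13005 genes that passed the filter on low counts. RNA of 2000 sorted cells per sample was amplified and sequenced for 4 samples labelled Hdc-/- (C57BL/6 background) and 4 samples labelled WT (C57BL/6). No treatment is given for either group. Hdc is the gene of histidine decarboxylase, which makes histamine from histidine. The deleted part of Hdc, the surface markers of the sort, and the age and sex of the mice are not given in the labels used here, and nor is whether each sample was a mouse of its own. The p-values therefore cover only the sample-to-sample spread, which may be technical.

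Myeloid cells are built by a small set of factors that act in turn. C/EBP proteins bind DNA as dimers through a basic leucine zipper: C/EBPα is needed for the step into granulocyte and monocyte progenitors, C/EBPβ serves granulocyte production under stress, C/EBPδ responds to inflammation, and C/EBPε is needed for the secondary granules of neutrophils. PU.1 and IRF8 favour monocytes and dendritic cells, and GFI1, a repressor, favours neutrophils. RUNX1 binds DNA together with CBFβ, the core binding factor, and is needed to form blood stem cells in the embryo.

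Depth was 17218697 to 19775106 reads per library labelled Hdc-/- and 16322738 to 18054954 per WT library. The labels name no molecular identifiers, so amplified copies may count as separate reads. Hdc, counted over the whole gene, went against the labels, with 43.0 ± 0.896 CPM (depth-scaled read counts, with TMM) in libraries labelled Hdc-/- and 14.3 ± 1.56 CPM in WT (n = 4 each, SD). The group is therefore called by its label throughout, and each direction below rests on those labels. Kit, Cd34 and Flt3, genes of early blood progenitors, were strongly expressed: Cd34 had 1337 to 1392 CPM in libraries labelled Hdc-/- and 1322 to 1412 CPM in WT. Markers of mature cells were present too, and their values stand beside the results they moved with.

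The promoters of Runx1, which rose, and of its partner Cbfb are shown because the genes of this complex are among the results below. Each sequence runs from 250 bases before to 50 bases after a RefSeq start site on GRCm38.p6, 5′ to 3′ on the strand of the gene. Capitals mark matches, on either strand, to a RUNX motif (TGTGGT) or a PU.1 motif (GAGGAA). Runx1 lies on chromosome 16, minus strand, with a distal start site (chr16:92826025-92826324) and a proximal one (chr16:92697280-92697579), and Cbfb on chromosome 8, plus strand (chr8:105170424-105170723).
Runx1 distal: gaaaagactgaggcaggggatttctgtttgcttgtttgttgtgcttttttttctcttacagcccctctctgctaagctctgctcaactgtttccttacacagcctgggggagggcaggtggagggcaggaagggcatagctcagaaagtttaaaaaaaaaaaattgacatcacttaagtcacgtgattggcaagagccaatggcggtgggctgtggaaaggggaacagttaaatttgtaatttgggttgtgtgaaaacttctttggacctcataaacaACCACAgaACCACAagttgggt
Runx1 proximal: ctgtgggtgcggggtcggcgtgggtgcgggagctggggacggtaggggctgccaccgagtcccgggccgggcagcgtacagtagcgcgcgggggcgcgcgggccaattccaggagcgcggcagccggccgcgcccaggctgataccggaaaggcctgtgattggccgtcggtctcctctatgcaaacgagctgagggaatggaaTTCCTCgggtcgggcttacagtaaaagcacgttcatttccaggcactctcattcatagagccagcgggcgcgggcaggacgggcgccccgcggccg
Cbfb: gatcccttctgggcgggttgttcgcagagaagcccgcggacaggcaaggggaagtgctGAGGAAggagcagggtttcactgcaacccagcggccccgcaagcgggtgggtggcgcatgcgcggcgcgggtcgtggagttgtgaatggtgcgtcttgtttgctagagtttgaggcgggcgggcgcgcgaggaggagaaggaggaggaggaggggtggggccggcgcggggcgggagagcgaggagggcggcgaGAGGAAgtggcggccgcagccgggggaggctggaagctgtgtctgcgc

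The distal Runx1 promoter held the RUNX letters in reverse at 29 and 37 bases from the start site, inside the transcribed part. The proximal one held the PU.1 letters in reverse, 46 bases before the start site. Cbfb held them forward at 192 bases before the start site and at base 3 after it. The table held 10 promoters of 7 of the factors. Cebpd, Cebpe and Sfpi1 are not among these 7. The RUNX letters were in 1 of the 10 and in 16.8% of 32851 promoters of the same length, and the PU.1 letters in 2 of 10 against 28.3%. Of the other motifs searched on both strands, the C/EBP letters TTNNGNAA were in 1 of the 10, a Gfi1 promoter, against 40.7% of all. The GFI1 letters AATCNCNGC and the interferon response letters GAAANNGAA were in none of the 10, against 3.79% and 8.56%. No motif overlapped another. Counts per gene do not tell the Runx1 start sites apart, and a match is only a match of letters.

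Of the 10 factors, Cebpe was lower in the libraries labelled Hdc-/-, 2.94-fold, and Runx1 was 1.21-fold higher. The other 8 did not pass the test, with log2 fold changes between -0.34 and 0.16. A gene was called at an adjusted p under 0.05 in edgeR's quasi-likelihood test over all genes, and 4.76% of the 13005 genes tested were called (2.05% higher, 2.71% lower). Called factors numbered 2 of 10, with 2 also in DESeq2 and 2 in limma-voom. At an unadjusted p under 0.05 there were 5 of 10, against 18.7% of all genes, and the ranges of the groups did not overlap in 4 of 10, against 12.5% of all. The median log2 fold change was -0.08 over the factors and 0.004 over all genes tested, and the median absolute change was 0.17 over the factors and 0.12 over all genes. Between libraries of a group, the median SD on the log2 scale was 0.12 over the factors and 0.15 over all genes, which were not matched for level.

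**Figure D1:**
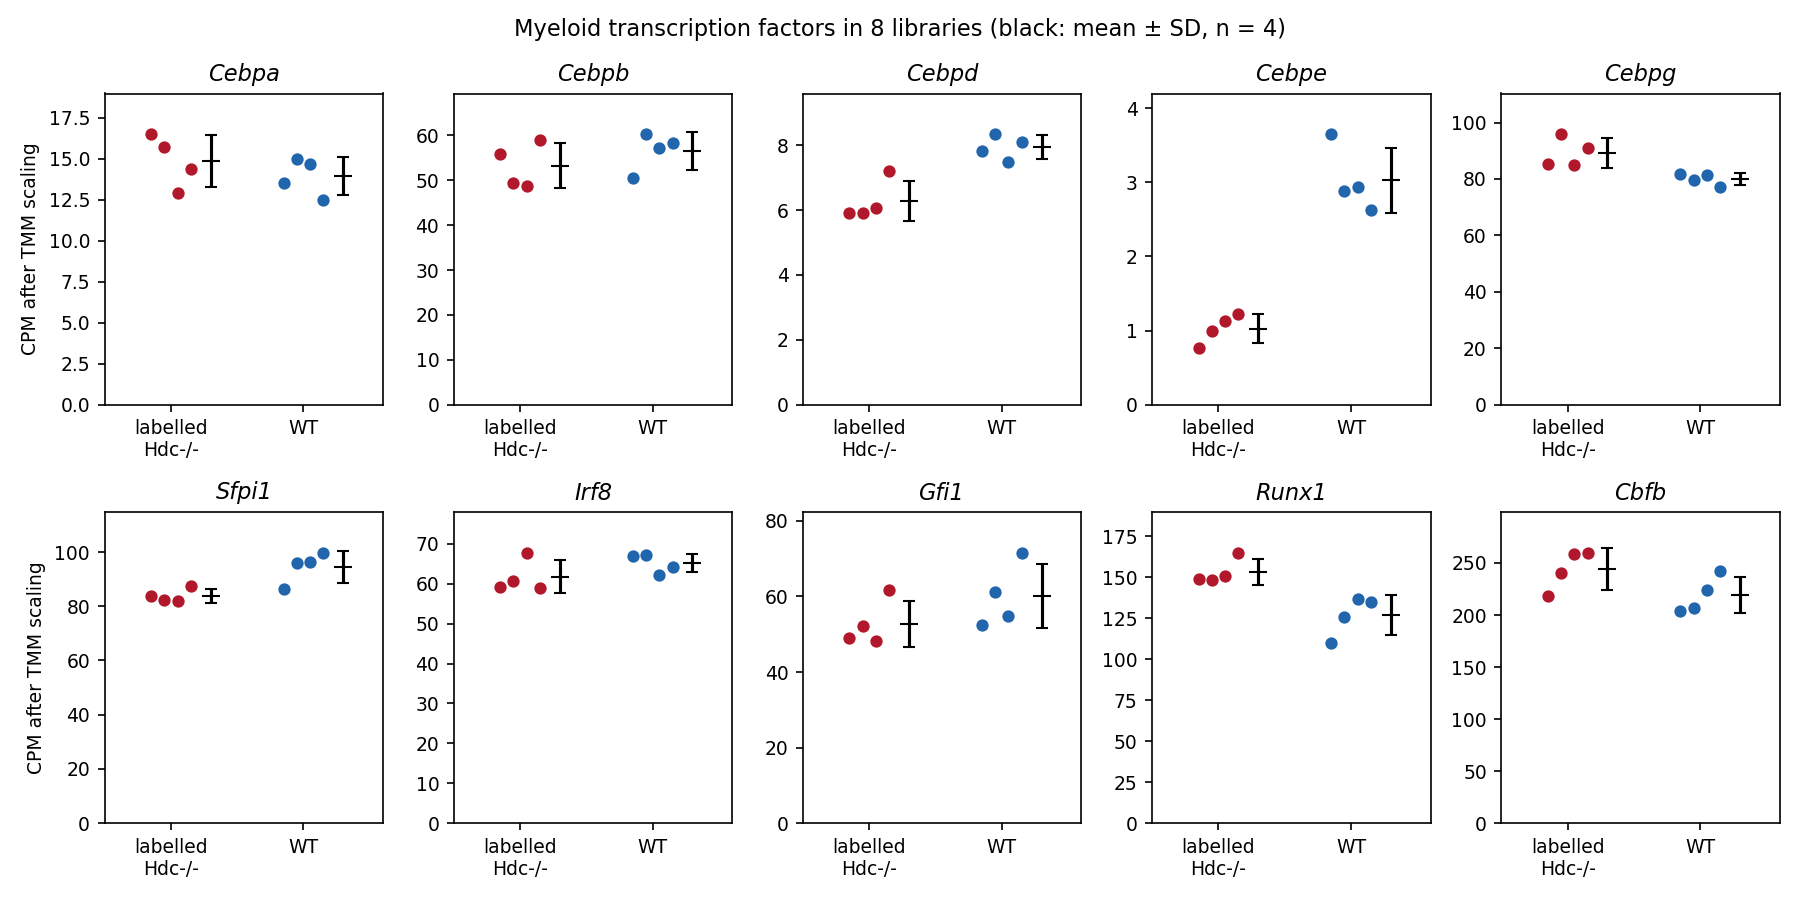
CPM (vertical axes, each from 0) of the 10 factors in the 4 libraries labelled Hdc-/- (left, red, in the order 1, 2, 3, unnumbered) and the 4 WT libraries (right, blue, 1 to 4), with mean ± SD in black. The groups lie apart for Cebpd, Cebpe, Cebpg and Runx1, and Cebpe lies at 0.759 to 1.22 CPM in libraries labelled Hdc-/- and 2.63 to 3.65 CPM in WT.

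Cebpe, the C/EBP factor of late neutrophil differentiation, had 15, 18, 22 and 21 reads in the libraries labelled Hdc-/- (1, 2, 3, unnumbered), against 63, 47, 53 and 47 reads in WT libraries 1 to 4. Every library labelled Hdc-/- was below every WT library. Cebpe averaged 1.02 ± 0.200 CPM in libraries labelled Hdc-/- and 3.02 ± 0.441 CPM in WT (n = 4 each, SD). The log2 fold change was -1.56 (SE 0.32, 95% interval -2.23 to -0.88, adjusted p = 0.0073 by edgeR). Only 56 of the tested genes (0.431%), Cebpe included, had a log2 fold change that low or lower, and 38 of these 56 were called. Cebpe also had the fewest reads of the 10, 76 in all over the libraries labelled Hdc-/- and 210 over WT, and its interval was the widest. It was called whichever single library was left out, at log2 fold changes of -1.65 to -1.44.

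Of 19 genes that C/EBP factors are known to switch on in granulocytes, 14 fell in the libraries labelled Hdc-/- and none rose. Their median log2 fold change was -1.39, and 2.71% of all genes tested were called lower. The list was chosen with earlier results of these data known, so its count is not a test of Cebpe. Mmp9 and Mmp8, proteases of neutrophil granules, both fell by 1.39 in log2 units (SE 0.14 each, adjusted p = 5.6e-06 and 1.3e-05 by edgeR). Hp, haptoglobin, fell by 1.54 (SE 0.15) and Lyz2, a lysozyme of granulocytes and macrophages, by 0.71 (SE 0.08). Lyz2 had 307 ± 14.9 CPM in libraries labelled Hdc-/- and 503 ± 74.0 CPM in WT (n = 4 each, SD).

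The 5 of the 19 that did not pass, listed after their values were seen, were the receptor genes Csf3r and Il6ra, the integrin gene Itgam, Fcnb, a secreted lectin, and the granule protease gene Elane. Il6ra, part of the interleukin-6 receptor, had 31.2 ± 2.02 CPM in libraries labelled Hdc-/- and 28.1 ± 2.89 CPM in WT (n = 4 each, SD), which overlap, with log2 fold change 0.15 and SE 0.11 (adjusted p = 0.49). Csf3r, the receptor of the granulocyte growth factor G-CSF, had 191 to 202 CPM in libraries labelled Hdc-/- and 205 to 219 CPM in WT, which do not overlap, and a log2 fold change of -0.10 with SE 0.06 (adjusted p = 0.35). Elane was uneven within both groups, with 114, 139, 457 and 642 reads in the libraries labelled Hdc-/- (1, 2, 3, unnumbered), and 1492, 1034, 540 and 354 in WT libraries 1 to 4. Its groups overlapped, and its log2 fold change of -1.43 had an SE of 0.76 (adjusted p = 0.39).

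Markers of neutrophils moved with Cebpe. Each of 10 neutrophil markers fell (median -1.44 on the log2 scale), and none was at 0 in all libraries. Their summed level was 794 to 1380 CPM in libraries labelled Hdc-/- and 2589 to 4015 CPM in WT. Markers of granulocyte-monocyte progenitors fell in 8 of 9, and summed to 1127 to 1249 CPM in libraries labelled Hdc-/- and 1468 to 1714 CPM in WT. Most of this sum was Mpo, at 847 to 902 CPM in libraries labelled Hdc-/- and 993 to 1159 CPM in WT. The falls were uneven, with log2 fold changes of -0.24 for Mpo, -0.48 for Prtn3 and -1.32 for Cd177. The neutrophil and progenitor lists share 8 and 5 genes with the C/EBP targets, and were likewise chosen with earlier results known. The part of neutrophils or their precursors in the lower Cebpe was not tested. In bulk samples such as these, fewer cells of a type and less RNA per cell cannot be told apart.

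Cebpa, the factor of the first granulocyte and monocyte step, had 326, 284, 252 and 248 reads in the libraries labelled Hdc-/- and 233, 244, 266 and 224 reads in WT. The groups overlapped, with 14.9 ± 1.55 CPM in libraries labelled Hdc-/- and 13.9 ± 1.14 CPM in WT (n = 4 each, SD). Its log2 fold change of 0.09 (SE 0.13, adjusted p = 0.76) had a 95% interval of -0.19 to 0.37. A change of Cebpa by the factor seen for Cebpe lay outside that interval.

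Cebpb, the factor of stress granulopoiesis, had 1105, 894, 950 and 1017 reads in the libraries labelled Hdc-/- and 871, 983, 1034 and 1044 reads in WT, with groups that overlapped (log2 fold change -0.09, SE 0.09, interval -0.28 to 0.10, adjusted p = 0.66). Cebpb lies on chromosome 2 with Hdc, 298 tested genes away, and Sfpi1 lies there too, 198 away.

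Cebpd, an inflammation-responsive factor, had 117, 107, 118 and 124 reads in the libraries labelled Hdc-/- and 135, 136, 135 and 145 reads in WT. Its levels did not overlap, at 5.91 to 7.19 CPM in libraries labelled Hdc-/- and 7.48 to 8.34 CPM in WT, yet it did not pass the test (log2 fold change -0.34, SE 0.16, interval -0.69 to 0.01, adjusted p = 0.28). Its value is uncertain in another way: 15% of its exon bases in the GENCODE M21 annotation lie opposite exons of Spidr, listed in the table as 2310008H04Rik, and the library kit does not mark strand. That gene, chosen for its position, had 37.6 to 48.6 CPM in libraries labelled Hdc-/- and 32.7 to 43.6 CPM in WT (log2 fold change 0.18, SE 0.11, adjusted p = 0.42).

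Cebpg, a ubiquitous family member that pairs with other C/EBP and ATF proteins, had 1685, 1737, 1654 and 1566 reads in the libraries labelled Hdc-/- and 1407, 1296, 1467 and 1380 reads in WT. Each library labelled Hdc-/- was above each WT library, with 89.2 ± 5.21 CPM in those labelled Hdc-/- against 79.9 ± 2.05 CPM in WT (n = 4 each, SD). The difference was small (log2 fold change 0.16, SE 0.07, interval 0.01 to 0.31) and did not pass (adjusted p = 0.24). On chromosome 7 Cebpg and Cebpa are neighbours, with 0 tested genes between them.

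**Figure D2:**
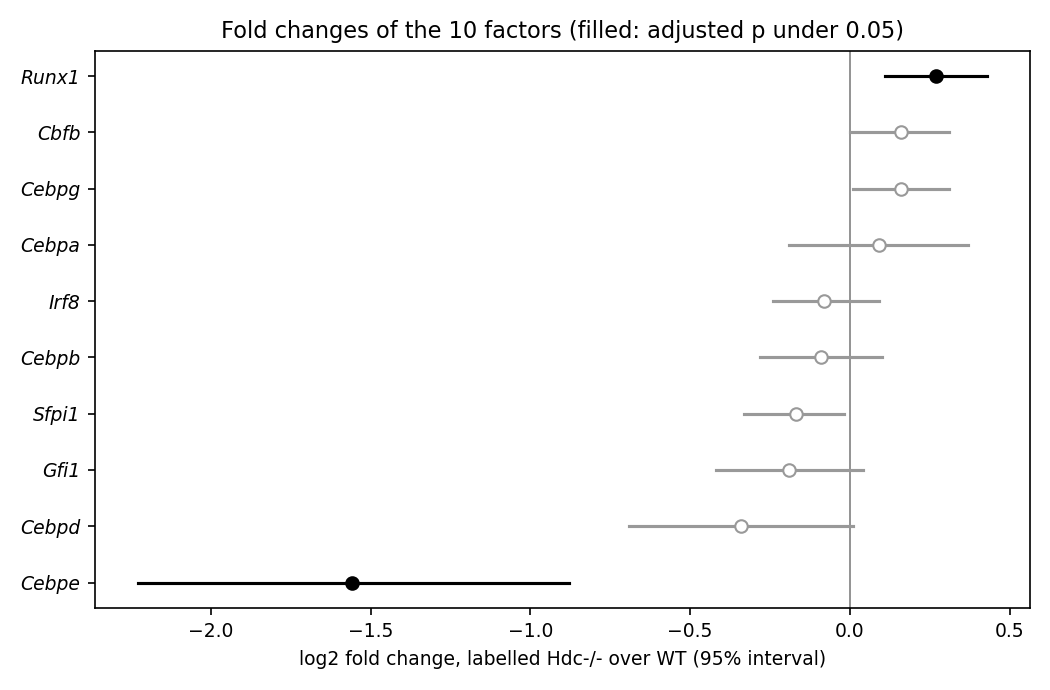
Log2 fold change of each factor, libraries labelled Hdc-/- over WT (horizontal axis), with its 95% interval from edgeR. Filled points passed at an adjusted p under 0.05: Cebpe at -1.56 and Runx1 at 0.27, while the open points lie between -0.34 and 0.16.

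Sfpi1 encodes PU.1, an ETS factor of myeloid and B cell development. It had 1655, 1492, 1594 and 1506 reads in the libraries labelled Hdc-/- and 1486, 1562, 1741 and 1785 reads in WT, and averaged 83.8 ± 2.48 CPM in libraries labelled Hdc-/- and 94.5 ± 5.83 CPM in WT (n = 4 each, SD). WT library 1, at 86.2 CPM, lay within the range of the group labelled Hdc-/-, and the other WT libraries lay above it. The log2 fold change was -0.17 (SE 0.07, interval -0.33 to -0.02) and did not pass (adjusted p = 0.20). Without WT library 1 it was -0.21 and passed (adjusted p = 0.044).

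Irf8, which drives monocyte and dendritic cell fate, had 1172, 1102, 1320 and 1015 reads in the libraries labelled Hdc-/- and 1154, 1095, 1124 and 1149 reads in WT. The groups overlapped, and the log2 fold change of -0.08 (SE 0.08, interval -0.24 to 0.09) did not pass (adjusted p = 0.65).

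Gfi1, the repressor of the neutrophil branch, had 970, 944, 937 and 1063 reads in the libraries labelled Hdc-/- and 905, 998, 992 and 1282 reads in WT. It was uneven within groups, from 48.1 to 61.6 CPM in libraries labelled Hdc-/- and from 52.5 to 71.6 CPM in WT. The groups overlapped, with a log2 fold change of -0.19 (SE 0.11, interval -0.42 to 0.04, adjusted p = 0.38).

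Targets of PU.1 and IRF8 in monocytes and dendritic cells numbered 18, of which 4 fell and none rose. Their median log2 fold change was -0.34, and 2.71% of all genes tested were called lower. This list too was chosen with earlier results of these data known. Cybb, the catalytic subunit of the phagocyte oxidase, fell by 1.38 (SE 0.12, adjusted p = 1.5e-06 by edgeR), and Cd74, the invariant chain of MHC class II, by 1.29 (SE 0.13). Ly6c2, a surface marker of monocytes, fell by 1.19 (SE 0.16) and Ctss, cathepsin S, by 0.55 (SE 0.08). Ly6c2 is also on the list of granulocyte-monocyte progenitor markers, of which 8 of 9 fell. Csf1r, the receptor of the macrophage growth factor, had 26.9 ± 3.94 CPM in libraries labelled Hdc-/- and 28.2 ± 8.62 CPM in WT (n = 4 each, SD), a log2 fold change of -0.07 with SE 0.19 (adjusted p = 0.89).

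Markers of monocytes and macrophages had 0 calls among 12 tested in edgeR, 2 in DESeq2 and 1 in limma-voom. At an unadjusted p under 0.05 in edgeR there were 5, against 18.7% of all genes tested. The 12 summed to 141 to 175 CPM in libraries labelled Hdc-/- and 132 to 145 CPM in WT. Dendritic cell markers were higher in 2 and lower in 1 of 5 tested, and summed to 1022 to 1055 CPM in libraries labelled Hdc-/- and 849 to 954 CPM in WT. Most of this sum was Flt3, and without it, a choice made after seeing the data, the sum was 91.1 to 103 CPM in libraries labelled Hdc-/- and 114 to 133 CPM in WT, the opposite direction. Most of what remained was Bst2, at 67.2 to 75.6 CPM in libraries labelled Hdc-/- and 92 to 117 CPM in WT. Bst2 fell (log2 fold change -0.49) and Ccr9 rose (0.57), so each sum mainly follows 1 gene. Of the B cell markers 6 of 7 tested fell, and the list summed to 155 to 173 CPM in libraries labelled Hdc-/- and 247 to 319 CPM in WT. The part of any of these cells, or of neutrophils and their precursors, in Sfpi1, Irf8, Cybb, Cd74, Ly6c2 or Ctss was not tested. Of other markers, 1 of 4 for T and NK cells and 2 of 6 for basophils and mast cells were lower. The T and NK call was Nkg7 (log2 fold change -0.40), while Cd3e, Cd3d, Cd8a and Gzma were too low to be tested. In the basophil and mast cell list, Prss34 had 0 to 0.331 CPM in libraries labelled Hdc-/- and 48.3 to 96.1 CPM in WT (log2 fold change -9.03).

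Among the partners and antagonists of PU.1 and IRF8, 0 of 23 passed in edgeR, 2 in DESeq2 and 1 in limma-voom. At an unadjusted p under 0.05 in edgeR there were 8, against 18.7% of all genes tested. The median log2 fold change of the 23 was 0.07. Etv6, an ETS repressor needed by stem cells of the marrow, came closest, with 612 ± 16.2 CPM in libraries labelled Hdc-/- and 531 ± 39.3 CPM in WT (n = 4 each, SD), a log2 fold change of 0.21 with SE 0.06 (adjusted p = 0.054 in edgeR). It passed in DESeq2 (adjusted p = 0.022) and limma-voom (adjusted p = 0.042). Spib, a close relative of PU.1 expressed in B cells and plasmacytoid dendritic cells, had 7.85 ± 2.11 CPM in libraries labelled Hdc-/- and 13.3 ± 4.82 CPM in WT (n = 4 each, SD), at a log2 fold change of -0.76 and adjusted p = 0.080 in edgeR. DESeq2 called it (adjusted p = 0.032), and without WT library 1 the log2 fold change was -0.48 (adjusted p = 0.20 in edgeR). Gata1, which antagonises PU.1 in red cell development, had 564, 354, 418 and 236 reads in libraries labelled Hdc-/- and 277, 202, 362 and 352 reads in WT, with overlapping groups (log2 fold change 0.29, SE 0.19, adjusted p = 0.47). That value was 0.10 without library 1 labelled Hdc-/-, 0.44 without the unnumbered one and 0.16 without WT library 2. Red cell markers were higher in 6 of 9 beside it, and summed to 2394 to 2594 CPM in libraries labelled Hdc-/- and 1815 to 1910 CPM in WT.

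The relatives and cofactors of GFI1 had 0 of 11 called in edgeR and 0 in DESeq2 or limma-voom. At an unadjusted p under 0.05 in edgeR there were 3, against 18.7% of all genes tested. The median log2 fold change of the 11 was 0.03. Kdm1a, the histone demethylase that GFI1 recruits, had 154 ± 5.67 CPM in libraries labelled Hdc-/- and 173 ± 14.1 CPM in WT (n = 4 each, SD), a log2 fold change of -0.16 with SE 0.07 (adjusted p = 0.20). The corepressor gene Cbfa2t3 was at 0.18 (SE 0.07, adjusted p = 0.15).

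Runx1 was called higher by a small step. It had 2945, 2673, 2946 and 2847 reads in the libraries labelled Hdc-/- (1, 2, 3, unnumbered), against 1892, 2055, 2465 and 2416 reads in WT libraries 1 to 4. The lowest library labelled Hdc-/- had 148 CPM and the highest WT library 137 CPM, so the groups did not overlap. Runx1 averaged 153 ± 8.07 CPM in libraries labelled Hdc-/- and 127 ± 12.3 CPM in WT (n = 4 each, SD). The log2 fold change was 0.27 (SE 0.08, interval 0.11 to 0.43, adjusted p = 0.048 by edgeR). It had the 615th smallest p of the 619 genes called, and 1441 tested genes (11.1%), Runx1 included, had a log2 fold change as high or higher. The call ended when library 1, 2, 3 or the unnumbered one labelled Hdc-/- was left out (log2 fold change 0.29, 0.29, 0.28 and 0.23), and without WT library 2 or 4 (0.27 and 0.30), at adjusted p-values of 0.058 to 0.16.

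Cbfb, the partner that steadies RUNX1 on DNA, had 4312, 4353, 5041 and 4487 reads in the libraries labelled Hdc-/- and 3525, 3374, 4038 and 4336 reads in WT. Its groups overlapped, with 244 ± 19.7 CPM in libraries labelled Hdc-/- and 219 ± 17.5 CPM in WT (n = 4 each, SD), and the log2 fold change of 0.16 (SE 0.07, interval 0.00 to 0.31) did not pass (adjusted p = 0.26).

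Of 11 genes listed as relatives or partners of the core binding factor, 2 rose, Runx2 and Hhex, and none fell (median log2 fold change 0.11). Among all genes tested 2.05% were called higher. Runx2, a RUNX gene best known from bone and also expressed in blood progenitors, had 195 ± 5.56 CPM in libraries labelled Hdc-/- and 153 ± 4.25 CPM in WT (n = 4 each, SD). Its log2 fold change was 0.35 (SE 0.06, adjusted p = 0.0011), and it was called whichever single library was left out. Hhex, a homeobox factor of early blood and lymphoid cells and not a RUNX gene, rose by 0.30 (SE 0.07, adjusted p = 0.026). The call of Hhex ended without library 2, 3 or the unnumbered one labelled Hdc-/- (0.31, 0.27 and 0.26) or WT library 2 or 3 (0.28 and 0.26). Runx3, added after its value was seen as the remaining RUNX gene, had a log2 fold change of -0.00 with SE 0.07 (adjusted p = 0.99). It averaged 129 ± 8.04 CPM in libraries labelled Hdc-/- and 129 ± 11.0 CPM in WT (n = 4 each, SD).

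Runx1 is expressed in stem and progenitor cells and in megakaryocytes. Of 11 stem and progenitor markers 2 rose and 1 fell, and their summed level was 5686 to 5864 CPM in libraries labelled Hdc-/- and 4847 to 5644 CPM in WT. Without Kit, left out after seeing the data, the sums overlapped, at 4281 to 4365 CPM in libraries labelled Hdc-/- and 4041 to 4300 CPM in WT. Of 7 megakaryocyte markers 2 rose, and the list summed to 716 to 758 CPM in libraries labelled Hdc-/- and 441 to 659 CPM in WT. Kit itself, a receptor of early progenitors, had 1404 to 1530 CPM in libraries labelled Hdc-/- and 806 to 1344 CPM in WT. It did not pass (log2 fold change 0.32, SE 0.13, adjusted p = 0.23). The low end in WT was library 1, with 13895 Kit reads, against 21912, 24189 and 22690 in WT libraries 2 to 4. Other stem markers ran both ways. Flt3 and Hoxa9 rose, with log2 fold changes of 0.24 and 0.31 (adjusted p = 0.018 and 0.022 by edgeR). Cd34 was at -0.01, and Ly6a fell, at -1.15 (adjusted p = 7.6e-08 by edgeR). Hoxa9 and Ly6a were chosen after their values were seen. The part of these cells in the higher Runx1 was not tested.

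Of the dimer partners and inhibitors of C/EBP proteins, 1 of 16 tested passed in edgeR, 2 in DESeq2 and 1 in limma-voom. In edgeR 4.76% of all genes tested were called. The median log2 fold change of the list was -0.03. Trib1, which leads C/EBPα to destruction, had 127, 117, 111 and 137 reads in the libraries labelled Hdc-/- and 169, 167, 177 and 182 reads in WT, with no overlap at 5.70 to 7.94 CPM in libraries labelled Hdc-/- and 9.80 to 10.2 CPM in WT. It fell by 0.59 on the log2 scale (SE 0.16, adjusted p = 0.043 by edgeR). Its call ended without library 1, 2 or 3 labelled Hdc-/- (log2 fold change -0.58, -0.58 and -0.53) and without WT library 2, 3 or 4 (-0.58, -0.60 and -0.59), and with no filter on low counts (adjusted p = 0.051). Trib2, a relative with the same action on C/EBPα, had 8.52 to 11.4 CPM in libraries labelled Hdc-/- and 6.43 to 6.76 CPM in WT, a log2 fold change of 0.56 that did not pass in edgeR (SE 0.16, adjusted p = 0.062) and passed in DESeq2 (adjusted p = 0.025).

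**Figure D3:**
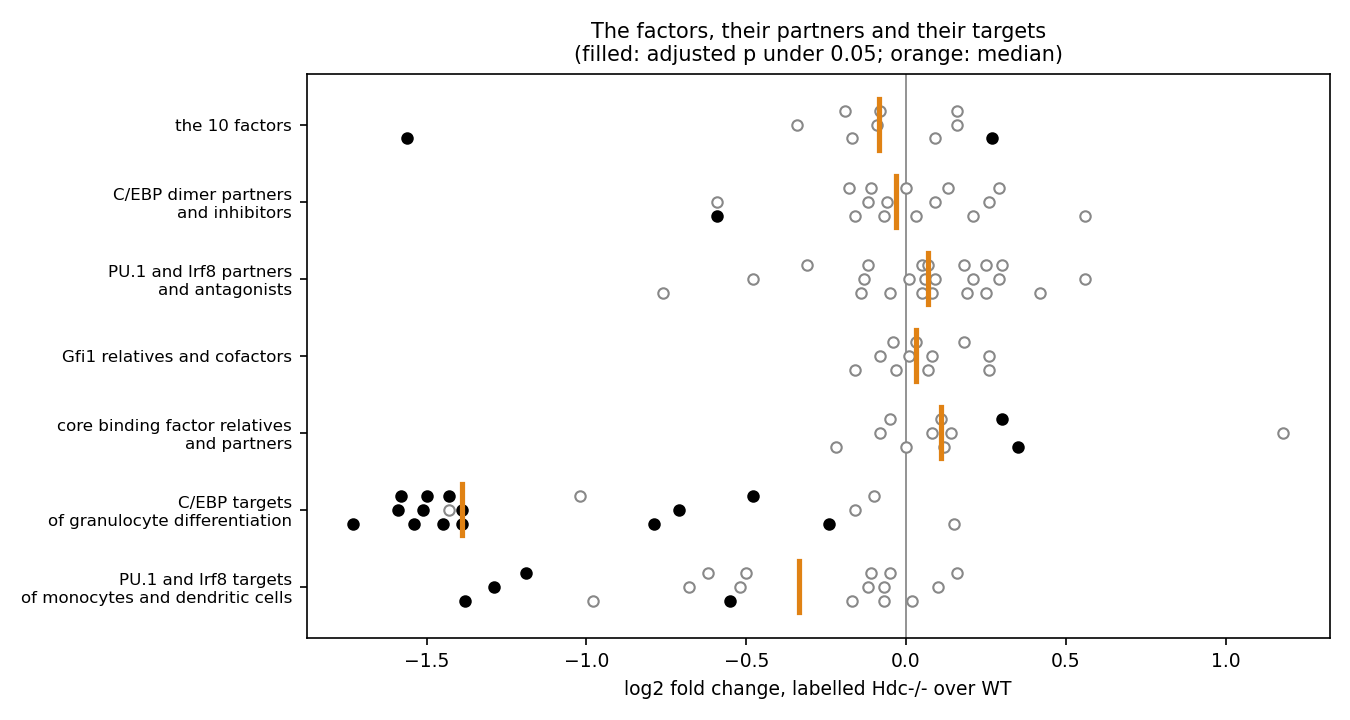
Log2 fold changes, libraries labelled Hdc-/- over WT (horizontal axis), of the 10 factors and of each gene in 6 lists of partners and targets. Filled points passed at an adjusted p under 0.05 and orange bars are medians: -1.39 for C/EBP targets, -0.34 for PU.1 and Irf8 targets and between -0.03 and 0.11 for the lists of partners.

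Ratios between factors within a library cancel most of the scaling between libraries. They were taken for 5 combinations known to oppose or follow each other, as log2 of CPM with 0.5 added to both, which understates changes of low genes. Cebpe over Cebpa averaged -3.34 ± 0.33 in libraries labelled Hdc-/- and -2.04 ± 0.20 in WT (n = 4 each, SD). The groups did not overlap, and the difference of -1.30 had an exact two-sided permutation p of 0.0286, the smallest that 4 against 4 can give (adjusted p = 0.0714 over the 5 ratios). With 0.1 CPM added the difference was -1.57, and with 2 CPM added it was -0.81, at the same adjusted p. Sfpi1 over Cebpa, whose balance is known to bear on the choice between monocyte and granulocyte, averaged 2.46 ± 0.15 in libraries labelled Hdc-/- and 2.72 ± 0.15 in WT (n = 4 each, SD). It did not overlap either, by a narrow margin between 2.62 in library 3 labelled Hdc-/- and 2.63 in WT library 1, and had a difference of -0.26 with the same exact permutation p-values.

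The other ratios overlapped between groups. Irf8 over Cebpa differed by -0.17 (exact permutation p = 0.229, adjusted 0.286), Gfi1 over Irf8 by -0.10 (0.514 and 0.514) and Sfpi1 over Gata1 by -0.43 (0.171 and 0.286). No ratio passed the adjustment, which in this design needs at least 3 of the 5 ratios at the smallest p.

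**Figure D4:**
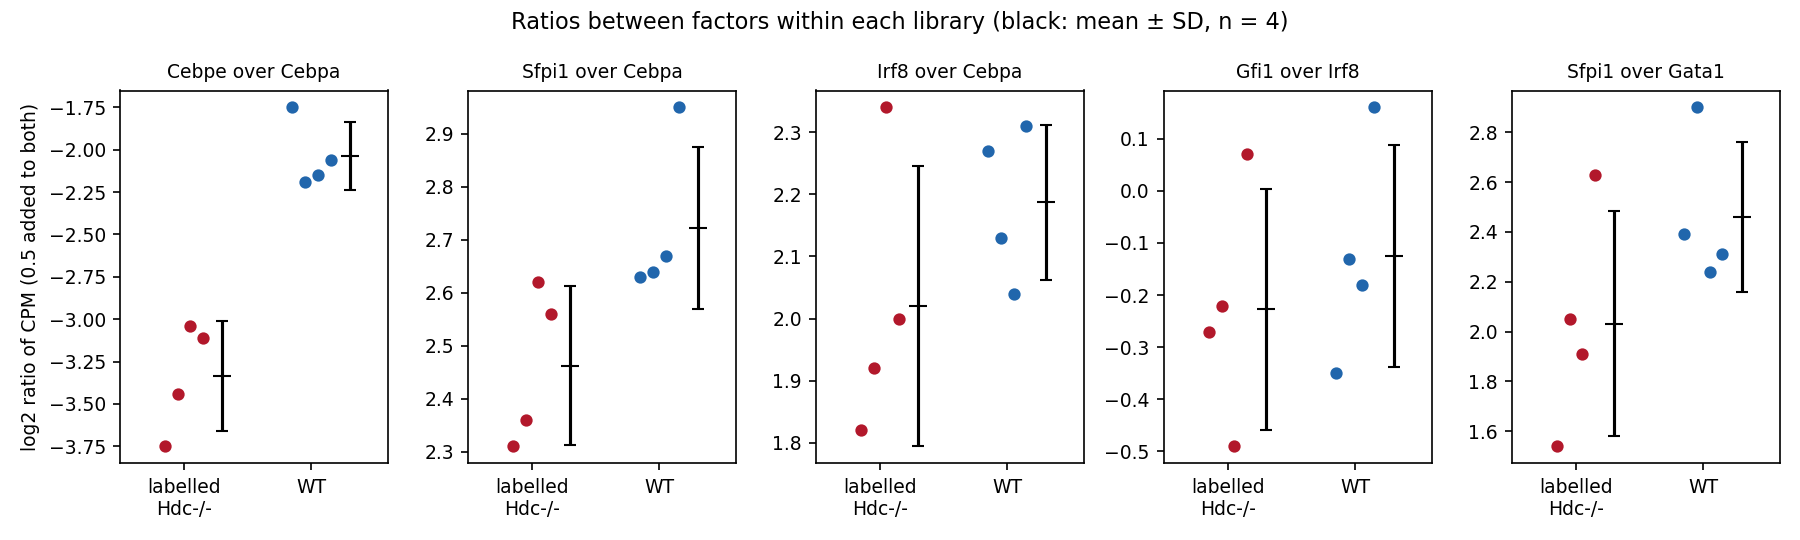
Log2 ratios of CPM between factors (vertical axes, not from 0) in the 4 libraries labelled Hdc-/- (left, red) and the 4 WT libraries (right, blue), with mean ± SD in black. Groups lie apart for Cebpe over Cebpa, at -3.75 to -3.04 in libraries labelled Hdc-/- and -2.19 to -1.75 in WT, and for Sfpi1 over Cebpa, and overlap in the other panels.

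Levels were ordered per length of exon, as CPM per kilobase of the exon bases that GENCODE M21 lists, which need not be the annotation behind the counts. Cbfb led, with 83.8 ± 6.77 CPM per kilobase in libraries labelled Hdc-/- and 75.3 ± 6.01 in WT (SD, n = 4 each, as for all levels here). Sfpi1 followed with 41.2 ± 1.22 in libraries labelled Hdc-/- and 46.5 ± 2.87 in WT, and Cebpb with 35.4 ± 3.32 in libraries labelled Hdc-/- and 37.6 ± 2.82 in WT. The ranges of these 3 genes did not overlap each other within either group.

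Next came a cluster of Runx1, Irf8, Cebpg and Gfi1, with means of 17.0 to 20.6 CPM per kilobase in libraries labelled Hdc-/- and up to 19.3 in WT. Ranges within this cluster mostly overlapped. In libraries labelled Hdc-/- Runx1 was highest, at 19.8 to 22.2, just above Irf8 at 17.1 to 19.7, whereas in WT Gfi1 had the highest mean. Cebpa lay well below them, with 5.64 ± 0.589 CPM per kilobase in libraries labelled Hdc-/- and 5.29 ± 0.432 in WT.

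Cebpd and Cebpe were lowest. Cebpd had 1.58 to 1.92 CPM per kilobase and Cebpe 0.611 to 0.981 in libraries labelled Hdc-/-, so that Cebpe was below Cebpd in each. In WT, Cebpd averaged 2.12 ± 0.0992 and Cebpe 2.44 ± 0.355, with ranges that overlapped.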

How the data were processed

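RNA of sorted bone marrow stem and progenitor cells was sequenced in 8 libraries, 4 labelled Hdc-/- and 4 WT. The values the authors deposited are raw read counts per gene symbol. The tools named are HTSeq 0.6.1, TopHat2 2.0.4, Bowtie2 and bcl2fastq 1.8.4, with build mm9, per the submitters' processing notes. Per the labels' protocols RNA was extracted with PicoPure, amplified with SMARTer and made into libraries with Nextera XT. No gene annotation, strand setting or overlap mode is given in the sources used here. Entries labelled only with a number, 2 of 23284, were left out (at most 0.0320% of reads). Columns were matched to sample titles by name. In the group labelled Hdc-/-, 1 column carries a number that no title has, and is called the unnumbered library.

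The main test was edgeR 4.0.16 in R 4.3.3, a robust quasi-likelihood fit with TMM scaling and filterByExpr (minimum count 10, minimum total 15), two-sided, with Benjamini-Hochberg adjustment over all 13005 genes tested and a threshold of 0.05. An SE was taken as the size of the log2 fold change over the root of its F statistic. Libraries of a group were distinct: their chi-square statistic per gene was at least 6.84. The edgeR script was tested on simulated data. Alternatives were DESeq2 1.42.0, limma-voom 3.58.1, RLE and upper-quartile scaling, no filter, a minimum count of 50, each library left out, and the replicate number as a block. RefSeq (GRCm38.p6) gave gene order for 12916 tested genes (99.3%) and the promoter sequences.

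The members and lists were chosen with earlier results of these data known. Named are all 10 factors, Hdc, the genes of the ratios, up to 4 called genes in each direction per list of partners or targets (with fewer than 2 called, those with the smallest p), and up to 3 markers per cell type by level. Others are marked as chosen later. The ratios were tested by exact permutation. The planned comparison of C/EBP proteins was not made here.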

Additional observations from a re-analysis of the deposited data

Results flagged for a closer look

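Values of the 10 factors and 5 ratios were looked at in 30 groups of 4 libraries, in which chance alone flags about 1 in 20. In the unnumbered library labelled Hdc-/-, Cebpd stood apart at 7.19 CPM, against 5.91 to 6.06 CPM in the other libraries of its group. In WT library 4, the log2 ratio of Sfpi1 over Cebpa stood apart at 2.95, against 2.63 to 2.67 in the other WT libraries.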

How the results depend on the processing

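Of the 10 factors, 7 kept their direction and stayed without a call under every alternative, and no factor reversed. Cebpe was not tested at a minimum count of 50. The replicate numbers did not pair the libraries: deviations of same-numbered libraries correlated at -0.0718, -0.0209 and -0.002, and 0 of 6 numbered libraries correlated best with their own number. With the number as a replicate block, which leaves out the 2 libraries without a counterpart, Cebpe was at -1.71 (adjusted p = 0.052) and Runx1 at 0.27 (adjusted p = 0.20). The same 6 libraries without the block gave -1.71 for Cebpe (adjusted p = 0.024) and 0.27 for Runx1 (adjusted p = 0.17). Called factors numbered 1 at a minimum count of 50, 0 with the block, 1 in those 6 libraries and 1 to 3 with a library left out. Genes called higher numbered 448 in DESeq2, 123 with the block, 134 in the 6 libraries and 137 to 382 with a library left out, and genes called lower 189 with the block and 211 in the 6 libraries. Called partners of C/EBP proteins numbered 0 without a filter, 2 in DESeq2, 0 with the block, 0 in the 6 libraries and 0 to 1 with a library left out. Partners of PU.1 and Irf8 numbered 1 with upper-quartile scaling, 1 at a minimum count of 50, 2 in DESeq2, 1 in limma-voom and 0 to 2 with a library left out. GFI1 relatives and cofactors numbered 0 to 1 with a library left out, the 1 being Kdm1a without WT library 1. Core binding factor relatives numbered 1 with the block, 1 in the 6 libraries and 1 to 2 with a library left out. With a library left out, Sfpi1 ran from -0.21 to -0.15 and Runx1 from 0.21 to 0.31. The log2 ratio differences ran from -1.40 to -1.16 for Cebpe over Cebpa, -0.31 to -0.19 for Sfpi1 over Cebpa and -0.63 to -0.27 for Sfpi1 over Gata1. Without the unnumbered library labelled Hdc-/- these 3 passed (exact permutation, adjusted p = 0.0476), at -1.37, -0.29 and -0.63. With 0.1 or 2 CPM added in place of 0.5, Cebpe over Cebpa was at -1.57 or -0.81, and no ratio's call moved. The causes were not tested. Cebpe rests on 15 to 63 reads per library.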
